A study of Mus musculus with 40 samples.

Results

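The genes described here are 10 rows of a table of gene expression in mpkCCD cells, out of 55414 genes: Klra4, Txndc16, Ggh, Osbpl6, Calml4, Alox5ap, Guca1a, Pate14, Gm32461 and D630011A20Rik. They were chosen by symbol because their transcript levels were much higher in libraries labelled ATF1/CREB1-KO, ATF1/CREB1/CREM-KO or both. Their levels under those labels are therefore given as a description, with no test, and no threshold for the choice was stated. The mpkCCD line is an immortalized line of mouse kidney collecting duct cells. All libraries came from cells grown on permeable supports in a medium with dexamethasone, selenite and transferrin, and exposed for 72 hours to 0.1 nM dDAVP, an analogue of vasopressin, so no library shows the genes without it.

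The 22 libraries fall into 3 runs of consecutive library numbers, a division taken from the numbering and not named as a batch by the labels. The first run holds control clones 1 to 5 and 5 ATF1-KO libraries. The second holds control clones 6 to 8 and 3 ATF1/CREB1-KO libraries, and the third holds control clones 9 to 11 and 3 ATF1/CREB1/CREM-KO libraries, called the double and the triple label from here on. Control clones carry the wild-type genotype in the labels, and whether the replicates of a knockout are separate clones or cultures of 1 clone is not stated. Each p-value therefore measures only the spread between these libraries, which may be technical.

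ATF1, CREB1 and CREM are leucine zipper transcription factors that pair with one another and bind the cAMP response element. In collecting duct principal cells vasopressin raises cAMP through the V2 receptor, and protein kinase A then phosphorylates these factors, which recruit coactivators to their target genes. The Crem gene also makes short repressor forms, so the family can hold transcription down as well as drive it.

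Levels are in TPM, a measure of transcript abundance corrected for transcript length in which every library sums to the same total, so the depth of each library is unknown. The second run stood apart from the others: ribosomal protein transcripts (89 genes) took 7.21% to 15.3% of the TPM there against 2.69% to 4.15% elsewhere, and its control clones lay 1.35 and 1.36 below those of the first and the third runs on the log2(TPM + 1) scale, as the median over all 13295 genes tested. Every comparison was for this reason made against the control clones of the same run. The targeted transcripts were lower on average in all but 1 case. Atf1 averaged 26.6 TPM in ATF1-KO against 42.2 TPM in its controls, and Creb1 averaged 3.39 against 5.55 TPM under the double label and 18.7 against 37.7 TPM under the triple label. Crem was the exception, at 30.5 TPM under the triple label against 22.7 TPM in its controls. TPM does not show whether a transcript still encodes a protein. Of 12 principal cell markers, 10 reached 1 TPM in at least 1 library, and Kcnj1 and Elf5 did not. Aqp2, the vasopressin-regulated water channel and the defining marker, was at 15.1 to 16.1 TPM under the triple label against 641 to 2279 TPM in its controls, a fall of 6.34 on the log2 scale (limma adjusted p = 2.68e-09), and at 492 to 637 TPM against 379 to 1029 TPM under the double label, where it was not called.

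RefSeq (GRCm38.p6) gave a start site window for 7 of the 10 genes, with Osbpl6 holding 2 of the 8 windows, each reaching from 250 bases before the start to 50 after it. The build of the deposited table is not given in the sources used here. Since the choice of genes rests on CREB-family labels, the windows were searched on both strands for the full cAMP response element, TGACGTCA, and for its 5-base core, TGACG, which lies within the full element. Neither string was found in any of the 8 windows, while 1.79% of the 32851 RefSeq windows of this length held the full element and 20.8% held the core. That says only that these letters are not in these windows. The 250 bases before the start differed in their content of CG pairs, which are shown in capitals for 4 genes at the ends of the range, 5′ to 3′ on the strand of the gene. Klra4 (chr6:130067272-130067521, minus strand) and Pate14 (chr9:36638603-36638852, minus strand) held 0 CG pairs, Txndc16 (chr14:45219426-45219675, minus strand) held 12, and Osbpl6 (chr2:76406258-76406507, plus strand) held 29.
Klra4: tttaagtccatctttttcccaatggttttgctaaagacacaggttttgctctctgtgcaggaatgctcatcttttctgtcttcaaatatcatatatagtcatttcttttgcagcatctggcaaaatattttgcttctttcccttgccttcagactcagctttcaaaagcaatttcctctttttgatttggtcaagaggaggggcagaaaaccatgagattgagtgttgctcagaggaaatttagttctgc
Pate14: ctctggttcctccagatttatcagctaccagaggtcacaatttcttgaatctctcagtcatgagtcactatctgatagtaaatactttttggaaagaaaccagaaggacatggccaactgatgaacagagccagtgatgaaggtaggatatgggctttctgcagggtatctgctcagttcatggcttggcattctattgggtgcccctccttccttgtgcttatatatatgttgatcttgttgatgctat
Txndc16: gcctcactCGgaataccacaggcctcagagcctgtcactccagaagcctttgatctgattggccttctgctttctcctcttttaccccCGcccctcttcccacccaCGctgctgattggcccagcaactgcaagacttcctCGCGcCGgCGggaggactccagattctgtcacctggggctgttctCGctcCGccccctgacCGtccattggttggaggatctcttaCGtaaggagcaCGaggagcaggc
Osbpl6: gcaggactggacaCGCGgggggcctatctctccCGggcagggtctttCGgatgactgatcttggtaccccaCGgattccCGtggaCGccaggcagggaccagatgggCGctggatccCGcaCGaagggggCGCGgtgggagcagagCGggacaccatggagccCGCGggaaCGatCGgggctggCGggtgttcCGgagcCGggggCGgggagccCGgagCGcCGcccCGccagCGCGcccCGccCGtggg
Between these lay Gm32461 with 1 pair, Guca1a with 5, and Calml4 with 8, and the second Osbpl6 window held 7. Over all windows the median was 6 CG pairs, 18.8% held at most 1 and 33.5% held at least 12. The 10 genes so include starts poor in CG and starts rich in it, and genes that were higher under both labels were found at both ends.

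Klra4 encodes Ly49D, an activating receptor of natural killer cells that recognises class I major histocompatibility molecules. Its level was 20.9, 39.0 and 76.2 TPM in the 3 libraries of the double label, against 12.6, 13.4 and 11.7 TPM in control clones 6 to 8. Under the triple label it was 131, 106 and 106 TPM, against 17.1, 20.0 and 16.9 TPM in control clones 9 to 11. Every library of both labels lay above every one of the 11 control clones, and the triple-label libraries were close together while those of the double label spread over a 3.65-fold range. The change was 1.59 (SE 0.46) on the log2(TPM + 1) scale under the double label and 2.60 (SE 0.46) under the triple label. Without double-label replicate 3 the former was 1.13.

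Klra4 was the one gene of its family to reach a mean of 1 TPM. The other 13 Klra genes summed to 4.60 to 7.33 TPM in the triple-label libraries, 0.10 to 0.36 TPM in their controls and at most 1.13 TPM elsewhere. Klra8 was at 1.70, 3.73 and 3.47 TPM under the triple label against at most 0.14 TPM in control clones 9 to 11. Klra14-ps, a pseudogene, was at 1.40, 1.61 and 1.82 TPM against at most 0.13 TPM. The Klra genes are related copies, some more alike than others, and reads of Klra4 can be split among the closest, so these low levels are uncertain. Markers of natural killer and T cells were near 0: of 11, 10 stayed under 1 TPM in every library, 4 were at 0 in all 22 libraries, namely Nkg7, Gzma, Klrb1c and Ncr1, and their sum was 0.15 to 0.40 TPM under the triple label against 0.11 to 0.27 TPM in its controls. The exception was Ptprc, the pan-leukocyte phosphatase CD45, at 3.54 TPM in double-label replicate 2 and 0.65 and 0.77 TPM in the other two, against at most 0.43 TPM in the control and ATF1-KO libraries. In bulk RNA, a larger share of cells making a transcript and more of it in each cell cannot be told apart.

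**Figure D1:**
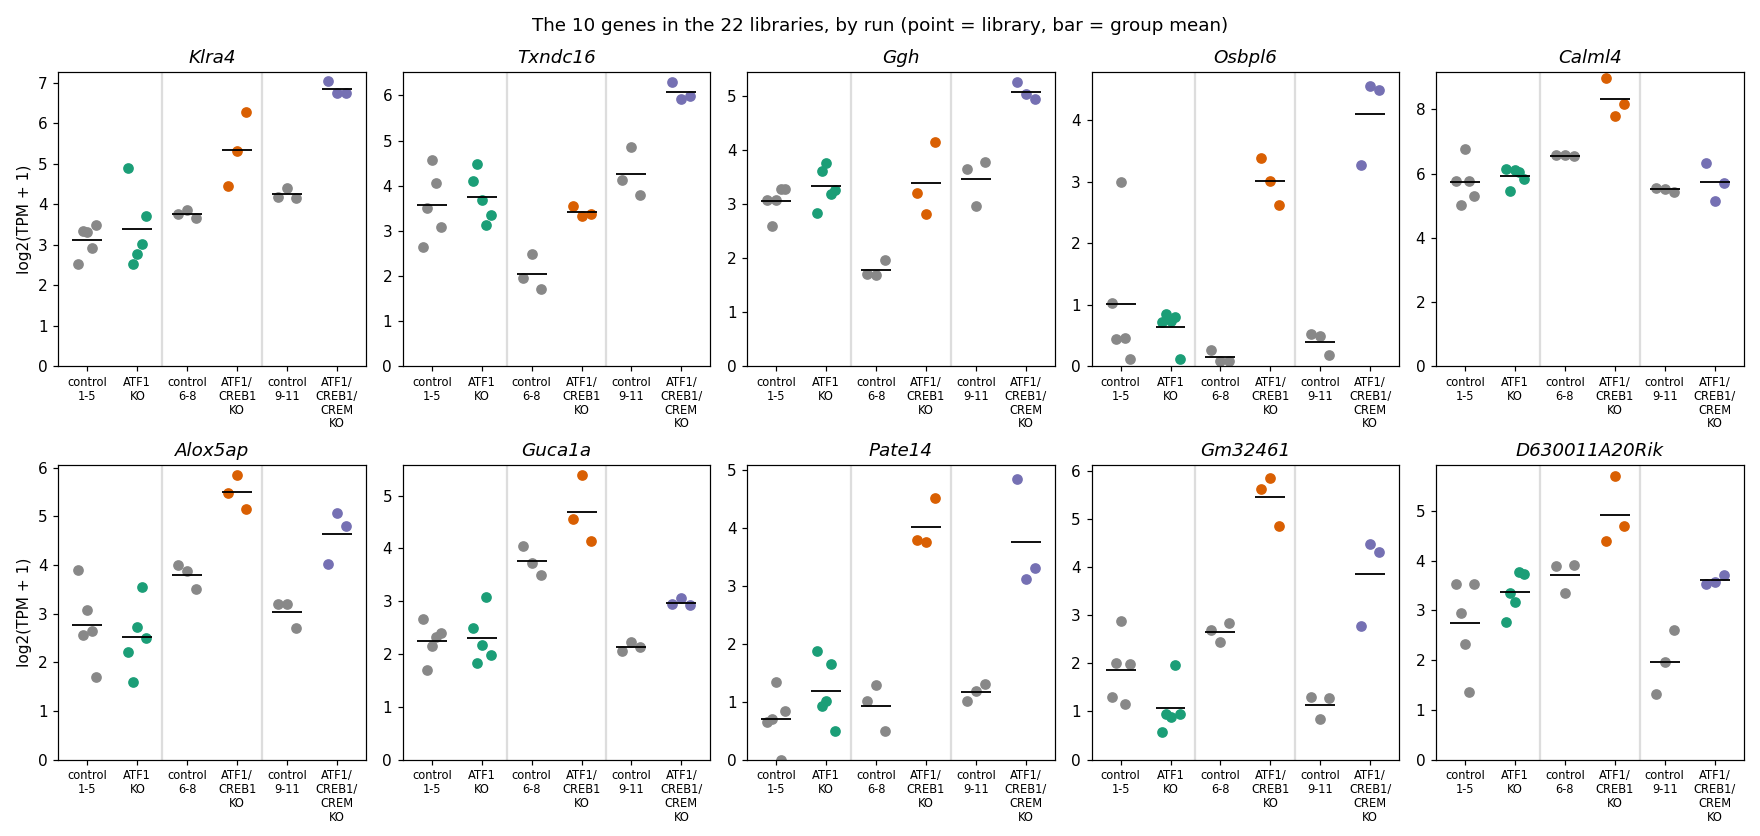
Transcript level of each of the 10 genes in every library, on the log2(TPM + 1) scale. Libraries are grouped by run into control clones and the knockout label of that run. Points of the double label lie above the control clones of their run for all 10 genes, and points of the triple label do so for 9, the exception being Calml4.

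Pate14 belongs to the Ly6/uPAR-type small proteins known from prostate and testis. It was at 1.01, 1.44 and 0.41 TPM in control clones 6 to 8 and at 12.8, 12.4 and 21.9 TPM under the double label. The triple label gave 27.5, 7.70 and 8.84 TPM against 1.01, 1.27 and 1.48 TPM. Both sets lay above all 11 control clones, where the highest value was 1.54 TPM, and triple-label replicate 1 stood above the other two. The log2 changes were 3.09 (SE 0.42) and 2.58 (SE 0.42), and the latter was 2.04 without triple-label replicate 1. None of the other 13 Pate genes reached the mean of 1 TPM needed for testing, and 8 were at 0 in every library. Pate2 averaged 1.61 TPM under the triple label against 0.30 TPM in its controls, and 0.45 against 0.02 TPM under the double label. Of 6 genes taken here as markers of testis and epididymis and found in the table, 4 were at 0 in every library. Their sum ran from 0 to 3.04 TPM under the double label against at most 0.33 TPM in its controls. Most of it was Defb1, a defensin, with a mean of 1.03 against 0.08 TPM. Defb1 was at 0 in 16 of the 22 libraries and at most at 2.97 TPM, so that mean came mostly from a single library. Under the triple label the sum was at most 0.18 TPM. The part of these low levels in the values of Pate14 was not tested.

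Osbpl6 encodes a member of the oxysterol-binding protein family, which carries lipids between membranes. It was almost silent in the control clones of both later runs, at 0.20, 0.06 and 0.06 TPM in clones 6 to 8 and 0.44, 0.40 and 0.13 TPM in clones 9 to 11. The double label gave 9.38, 7.07 and 5.15 TPM, and the triple label gave 8.68, 22.6 and 21.4 TPM. All 6 knockout libraries lay far above their own controls, although control clone 3 of the first run held 6.96 TPM, more than double-label replicate 3. The changes were 2.86 (SE 0.51) and 3.71 (SE 0.51) on the log2(TPM + 1) scale. With a pseudocount of 0.1 they were 5.17 and 5.36, since the control levels lie below the added 1 TPM.

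Most other oxysterol-binding genes were not called. Of 10 tested, 0 were called under the double label by limma (adjusted p below 0.05). Under the triple label Osbpl10 rose by 0.89 on the log2 scale (limma adjusted p = 0.042), while Osbpl3 and Osbpl8 fell by 0.64 and 0.80 (limma adjusted p = 0.039 and 0.029). Their median change was -0.09 under the double label and -0.05 under the triple label, beside -0.02 and -0.04 over all genes tested.

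Ggh encodes gamma-glutamyl hydrolase, a lysosomal enzyme that trims the glutamate tail of stored folates. It was at 8.23, 6.07 and 16.9 TPM under the double label against 2.28, 2.21 and 2.90 TPM in control clones 6 to 8. The triple label gave 37.7, 31.9 and 29.8 TPM against 11.6, 6.85 and 12.7 TPM. The groups were apart in both runs, but the double-label libraries reached into the range of the first and the third runs' control clones, 5.08 to 12.7 TPM. The changes were 1.61 (SE 0.29) and 1.62 (SE 0.29). Of 15 other folate genes tested, Slc46a1, the proton-coupled folate transporter, was the single one called: it rose by 0.73 under the double label and by 0.71 under the triple label (limma adjusted p = 0.024 and 0.016). The list's median change was 0.08 and -0.11.

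Txndc16 encodes a thioredoxin-domain protein of the endoplasmic reticulum. It was at 10.7, 9.01 and 9.39 TPM under the double label against 2.89, 4.64 and 2.27 TPM in control clones 6 to 8. Under the triple label it was at 77.5, 59.8 and 62.3 TPM against 16.4, 28.0 and 12.8 TPM. The triple-label libraries were above all 11 control clones. Those of the double label were above their own controls but within the range of the other runs' control clones. The double-label change of 1.36 (SE 0.40) was 0.07 against all 11 controls with no run term. In that comparison the median over all genes tested was -0.96, so Txndc16 still lay above the median gene. Txndc16 was itself 1.52 and 2.20 lower on the log2 scale in the control clones of the second run than in those of the first and the third, more than the median gene. The triple-label change was 1.81 (SE 0.40).

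Of 18 other thioredoxin-fold genes of the endoplasmic reticulum, all tested, 2 rose under the double label and 3 under the triple label, and 0 fell. Tmx3, a transmembrane thioredoxin, rose under both, by 0.69 and 0.82 (limma adjusted p = 0.0099 and 0.0011). Txndc5 rose by 0.55 under the double label (limma adjusted p = 0.034), and Tmx4 and P4hb, the classical protein disulfide isomerase, rose by 0.63 and 0.48 under the triple label (limma adjusted p = 0.014 and 0.034). The list's median change was 0.23 and 0.15. By the same limma threshold 1.47% of all genes tested were called higher and 3.11% lower under the double label, and 2.90% higher and 5.12% lower under the triple label. The double-label calls depend on pooling the spread over runs: a fit of the second run alone called 9 genes in place of 609, and leaving out control clone 6, 7 or 8 left 276, 234 or 294.

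Calml4 encodes a calmodulin-like light chain, known as a partner of myosin 7B in the brush border. It had the highest level of the 10 genes under the double label, 499, 221 and 287 TPM, against 93.5, 94.7 and 91.8 TPM in control clones 6 to 8. The triple label gave 79.7, 34.7 and 50.9 TPM against 46.3, 44.6 and 42.4 TPM. All 3 double-label libraries lay above all 11 control clones, but the triple-label libraries fell on both sides of theirs, with replicate 2 below every one. The changes were 1.75 (SE 0.35) and 0.22 (SE 0.35), and the latter was -0.08 without triple-label replicate 1. Calml4 was the one gene of the 10 that was not apart from its controls under both labels. Of 10 brush border genes, 7 were under 1 TPM in every library, including Myo7b, at most 0.73 TPM, and Ush1c, at 0 in all 22, and Espn, an actin bundler, fell by 1.99 under the triple label (limma adjusted p = 0.013).

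Guca1a encodes a calcium-sensing activator of the retinal guanylate cyclases, known from photoreceptors. It was at 22.5, 41.0 and 16.6 TPM under the double label against 15.4, 12.2 and 10.3 TPM in control clones 6 to 8. The triple label gave 6.72, 7.32 and 6.56 TPM against 3.14, 3.67 and 3.39 TPM. The gap to the nearest control was narrow under the double label, where replicate 3 was 1.08 times control clone 6. Under the triple label the 3 libraries lay close together, above their own controls but below control clones 6 to 8. Changes were 0.94 (SE 0.31) and 0.84 (SE 0.31), the smallest of the 10 genes under the double label. Without double-label replicate 2 the former was 0.59. Of 8 photoreceptor markers, 7 stayed under 1 TPM in every library, and Gucy2e, the cyclase that Guca1a protein activates, did not exceed 0.08 TPM.

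Alox5ap encodes FLAP, the membrane protein that hands arachidonate to 5-lipoxygenase for leukotriene synthesis. It was at 44.0, 56.4 and 34.7 TPM under the double label against 15.0, 13.6 and 10.3 TPM in control clones 6 to 8, and at 15.2, 32.5 and 27.0 TPM under the triple label against 8.23, 8.14 and 5.48 TPM. Both labels lay above all 11 control clones, with triple-label replicate 1 just above control clone 6. The changes were 1.71 (SE 0.45) and 1.60 (SE 0.45). Alox5, the lipoxygenase that it serves, was at 0 in 17 of the 22 libraries and at most 0.03 TPM in the rest. Of 6 other leukotriene genes tested, 0 were called under the double label, and under the triple label Ggt1, which splits glutamate from glutathione conjugates, fell by 2.97 (limma adjusted p = 0.0011). Lta4h, the leukotriene A4 hydrolase, changed by 0.05 and -0.04, and was called under neither label. The 10 myeloid markers summed to 7.99 to 27.5 TPM under the double label against 18.3 to 21.2 TPM in its controls, and to 10.1 to 57.9 TPM under the triple label against 20.7 to 25.5 TPM. None of the 4 that were tested was called.

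Gm32461 is annotated as a long intergenic noncoding RNA. It was at 48.3, 56.9 and 28.1 TPM under the double label against 5.42, 4.42 and 6.13 TPM in control clones 6 to 8. The triple label gave 5.85, 21.3 and 18.9 TPM against 1.47, 0.79 and 1.42 TPM. The groups were apart in both runs, though triple-label replicate 1 was below control clones 3 and 8. The changes were 2.79 (SE 0.45) and 2.72 (SE 0.45), and the latter was 3.26 without triple-label replicate 1. In that replicate the 412 genes tested on its chromosome, 16, had a median difference of -0.76 from the own-run controls on the log2 scale, against -0.05 and -0.02 in replicates 2 and 3. The part of that shift in its lower level was not tested.

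D630011A20Rik is annotated as a noncoding RNA from a bidirectional promoter. It was at 19.9, 51.1 and 24.8 TPM under the double label against 14.0, 9.19 and 14.1 TPM in control clones 6 to 8, and at 10.6, 10.8 and 12.1 TPM under the triple label against 1.51, 2.92 and 5.06 TPM. The groups were apart in both runs, but the triple-label values lay within the range of control clones 6 to 8. The changes were 1.21 (SE 0.46) and 1.64 (SE 0.46), and without double-label replicate 2 the former was 0.82. This gene overlaps Spaca7, a sperm acrosome gene, on the opposite strand, and with no strand kept in the counting stated, reads of the overlap cannot be told apart. Spaca7 was at 4.86, 5.87 and 6.82 TPM under the double label against 0.74, 0.41 and 2.15 TPM, and at 6.85, 4.93 and 5.55 TPM under the triple label against 1.30, 1.35 and 1.72 TPM. It rose by 1.78 and 1.46 (limma adjusted p = 0.012 and 0.022). Its levels may hold reads of D630011A20Rik, so these p-values are no test separate from that gene.

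**Figure D2:**
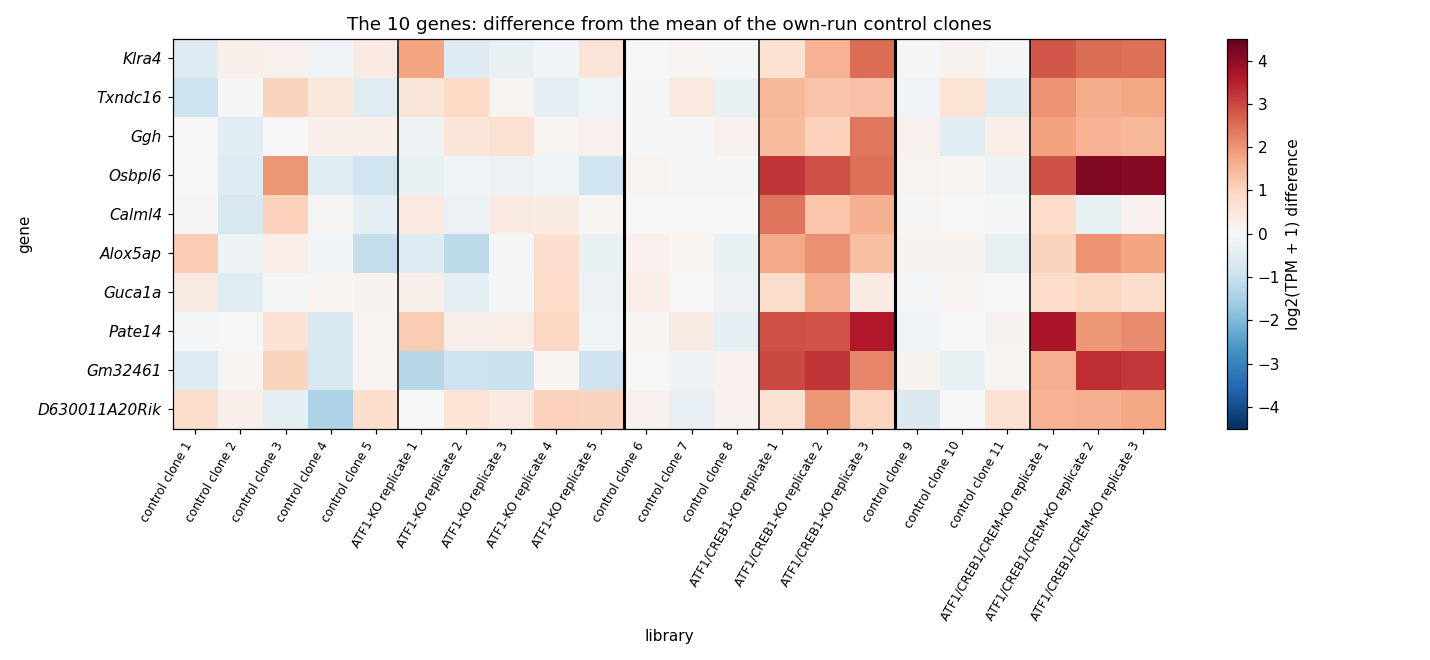
Difference of each library from the mean of the control clones of its run, on the log2(TPM + 1) scale, for the 10 genes (one per line) in the 22 libraries, with colour giving the size and direction of the difference. The ATF1-KO libraries show both directions, while the libraries of the double and triple labels lie on the higher side except for Calml4 in triple-label replicate 2.

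Set side by side, the 10 genes had a median change of 1.66 under the double label, ranging from 0.94 for Guca1a to 3.09 for Pate14, and a median of 1.73 under the triple label, ranging from 0.22 for Calml4 to 3.71 for Osbpl6. In the double label all 10 genes had every library above every own-run control, as did 6.55% of all genes tested. In the triple label 9 did, beside 14.1% of all genes, and the exception, Calml4, was also apart from its controls when replicate 2 was left out. These 9 were apart under both labels, beside 3.25% of all genes. The genes were chosen on these values, so nothing is read from the counts. All 10 passed the filter on low values, a mean of 1 TPM over the 22 libraries. On their control clones alone 8 would have passed, all but Osbpl6 and Pate14.

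Measured against all 11 control clones, 7 of the 10 genes were apart under the double label, beside 1.02% of all genes, and 6 under the triple label, beside 6.06%. Since the second run lay lower than the others for the median gene, these 2 shares cannot be compared with each other. Klra4, Alox5ap and Pate14 were above all 11 control clones under both labels. Txndc16, Ggh and Osbpl6 were so under the triple label alone, and Calml4, Guca1a, Gm32461 and D630011A20Rik under the double label alone. The latter 4 were higher in the control clones of the second run than in those of the first and the third, by 0.83 and 1.06 for Calml4, 1.51 and 1.62 for Guca1a, 0.78 and 1.51 for Gm32461, and 0.98 and 1.76 for D630011A20Rik on the log2 scale. Txndc16, Ggh and Osbpl6 went the other way, Ggh by -1.28 and -1.68 and Osbpl6 by -0.86 and -0.25. The median gene tested differed by -1.35 and -1.36 between the same control clones, so a lower level there was not particular to these genes. Alox5ap, which exceeded all controls under both labels, was also higher in the second run's control clones, by 1.02 and 0.76. The part of these control levels in which label exceeded all clones was not tested.

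A change of at least 1 on the log2 scale with all libraries apart under both labels was found for 8 of the 10 genes, and for 0.436% of all genes tested, 58 in number. Guca1a and Calml4 fell outside it. The values nearest the limit were 1.21 for D630011A20Rik under the double label on the inside and 0.94 for Guca1a under the same label on the outside. The change was larger under the triple than the double label for 5 genes, namely Klra4, Txndc16, Ggh, Osbpl6 and D630011A20Rik, though for Ggh by 0.01. The double and triple labels were compared with different control clones, and the differences between them were not tested.

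**Figure D3:**
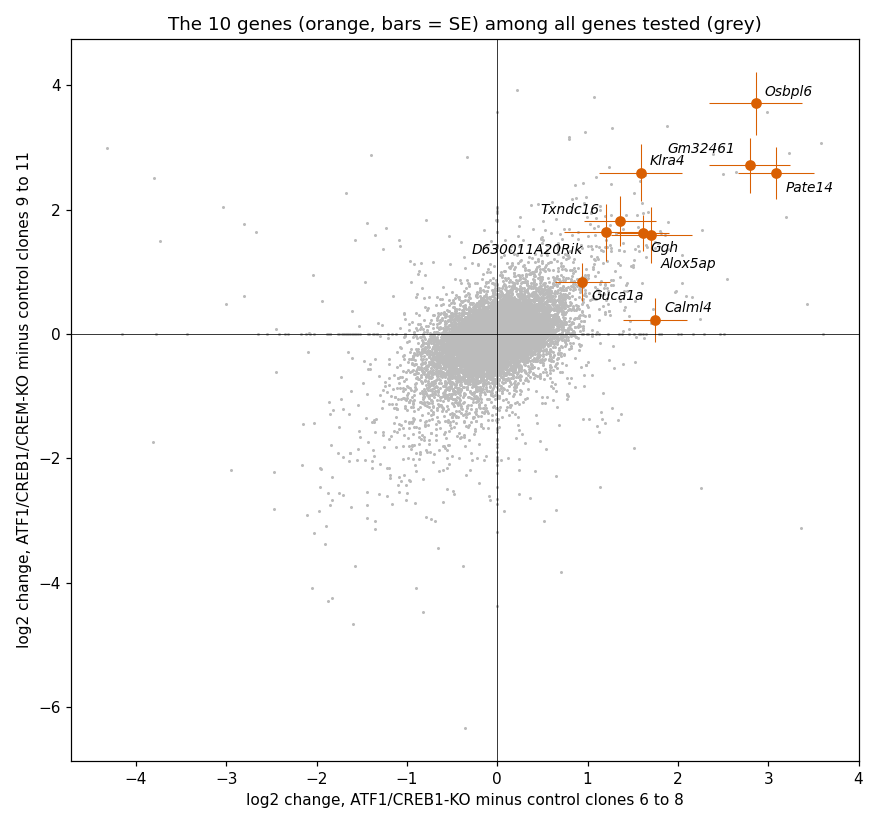
Change under the double label against change under the triple label, both on the log2(TPM + 1) scale against own-run control clones, for the 10 genes (orange, bars are the SE) and all other genes tested (grey). Calml4 lies near 0 on the triple-label axis at 0.22, and Osbpl6 is farthest along it at 3.71.

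The ATF1-KO libraries were not used to choose the genes and allow a test. Control clones 1 to 5, however, were part of the pooled control of earlier comparisons of these data. Osbpl6 and Pate14, each averaging 0.92 TPM over the 11 control clones, passed the filter only with knockout libraries included. The fit also shares 1 estimate of spread over all 22 libraries, those of the double and triple labels included. The test is therefore not fully independent of the choice. None of the 10 genes was called against control clones 1 to 5 by limma, nor was any of the 13295 genes tested (0.00%). At an unadjusted p under 0.05 there was 1 gene of the 10, beside 5.13% of all genes. The changes ran from -0.80 for Gm32461 to 0.62 for D630011A20Rik with a median of 0.19, beside -0.00 for all genes. Higher values were found for 7 of the 10, and 0 of the 10 had all 5 libraries above all 5 controls, beside 0.579% of all genes.

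Gm32461 was the gene under the unadjusted limit, and it went down. It was at 0.49, 0.93, 0.85, 2.92 and 0.93 TPM in ATF1-KO replicates 1 to 5, against 1.46, 3.01, 6.37, 1.24 and 2.97 TPM in control clones 1 to 5. Of the 5 libraries 4 were below every control, and replicate 4 was among the controls. Its log2 change was -0.80 (SE 0.34, limma adjusted p = 0.933), a difference that did not pass the test.

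D630011A20Rik was at 5.78, 9.21, 8.05, 12.7 and 12.3 TPM in ATF1-KO against 10.5, 6.74, 4.02, 1.56 and 10.5 TPM in the controls. Its change of 0.62 (SE 0.36) had a limma adjusted p of 1, as had the other 8 genes, and the groups overlapped. Klra4 was at 4.80 to 12.2 TPM in 4 ATF1-KO libraries and at 28.6 TPM in replicate 1, above each of the 11 control clones, which reached 20.0 TPM. Its change of 0.26 (SE 0.36) was -0.11 without that library. Osbpl6 was at 0.08 to 0.81 TPM in ATF1-KO and at 0.09 to 1.04 TPM in 4 of the controls, with control clone 3 at 6.96 TPM. Its change of -0.36 (SE 0.40) was 0.13 without control clone 3.

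The ATF1-KO libraries and their controls overlapped for the remaining genes too. Pate14 changed by 0.48, from 0.00 to 1.54 TPM in the controls to 0.41 to 2.64 TPM. Ggh and Calml4 changed by 0.27 and 0.19, and Txndc16 and Guca1a by 0.18 and 0.06. Alox5ap changed by -0.26, from 2.26 to 13.9 TPM to 2.00 to 10.6 TPM. The largest standard error among the 10 was 0.40, and no gene of the context lists was called in ATF1-KO.

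Libraries of 1 label differed among themselves. Under the triple label, replicates 2 and 3 were the closest pair for 8 of the 10 genes, and over all genes tested they correlated at r = 0.98 with each other against 0.952 with replicate 1 at the highest. Replicate 1 had the highest level of Klra4, Txndc16, Ggh, Calml4 and Pate14 and the lowest of Osbpl6, Alox5ap, Gm32461 and D630011A20Rik. Under the double label, replicates 1 and 2 were the closest pair for 5 genes, and replicate 3 had the highest level of Klra4, Ggh and Pate14 and the lowest of Osbpl6, Alox5ap, Guca1a and Gm32461. Double-label replicate 3 also had the lowest ribosomal protein share of its run, 7.21%, and the part of that in its levels was not tested.

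Among the 6 libraries of the double and triple labels, taken as deviations from own-run controls, the 45 pairs of genes had correlations from -0.92, for Osbpl6 with Pate14, to 0.97, for Alox5ap with Gm32461, and 22 of them were above 0. Over all 22 libraries the 45 correlations were all above 0, from 0.20 to 0.94, which the choice of genes raised in the same libraries brings with it. These points share libraries and, within each run, the same control mean, and they are a description. Of the genes most like each one over the 22 libraries, Osbpl6 and Gm32461 were nearest to each other (r = 0.94). Sgk1 followed for Osbpl6 (r = 0.92). Pate14 was nearest to Bspry (r = 0.95), Ggh to Galnt3 (r = 0.93), Klra4 to Lsm2 (r = 0.92), Alox5ap to Tmsb4x (r = 0.92) and Txndc16 to Galnt7 (r = 0.91). Calml4 was nearest to Med24 (r = 0.86), D630011A20Rik to Spaca7, which it overlaps (r = 0.84), and Guca1a to S100g (r = 0.83).

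**Figure D4:**
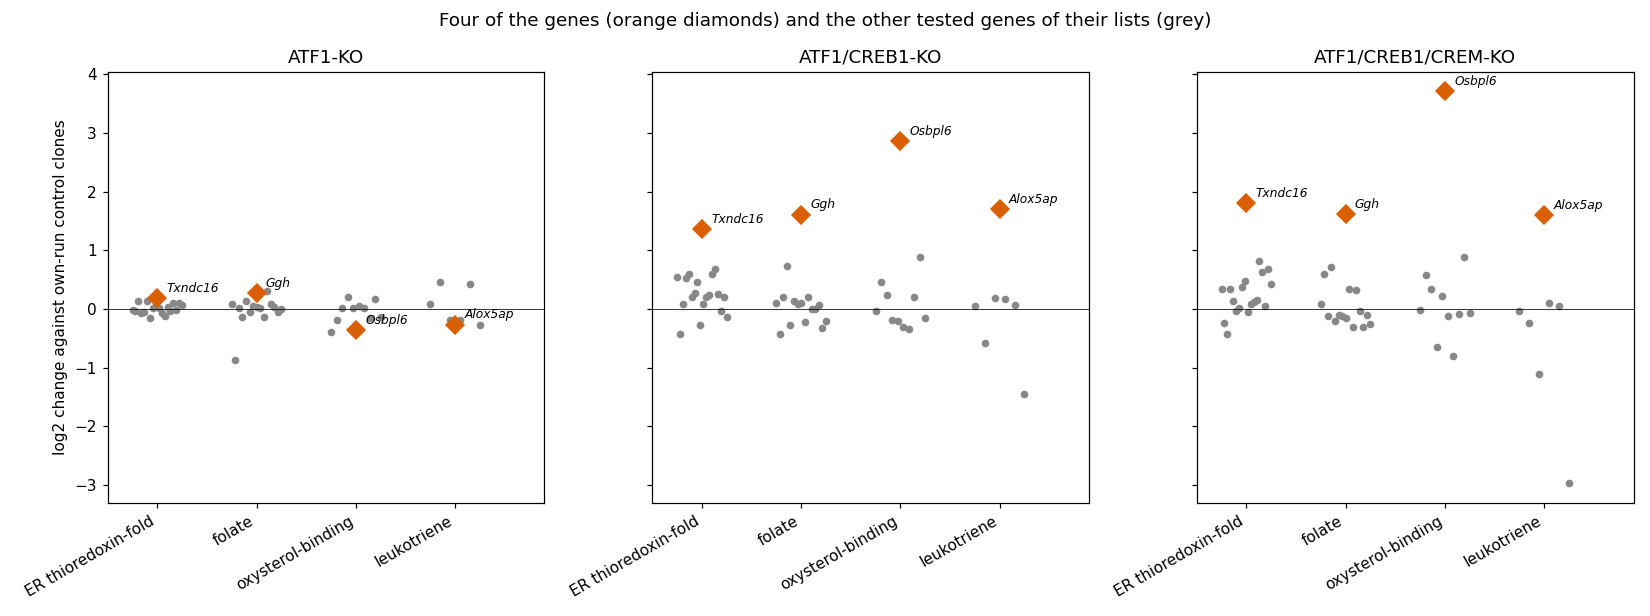
Log2 changes against own-run control clones in ATF1-KO, the double and the triple label (panels) for 4 of the genes (orange diamonds) and for the other tested genes of the list each belongs to (grey points). The orange diamonds lie above the other genes of their list under the double and the triple label, and among or near them in ATF1-KO. These genes were chosen for their high levels under the double and triple labels, so their place there carries no test.

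The genes lie on chromosomes 2, 4, 5, 6, 8, 9, 14, 16 and 17, with Calml4 and Pate14 sharing chromosome 9. Most of their tested neighbours on either side were not called under these labels. Of 20 neighbours, Spaca7 rose under both labels as given above and Wwp1, a ubiquitin ligase gene next to Ggh, rose by 0.94 under the triple label (limma adjusted p = 6.88e-04). Magohb beside Klra4 and Chek1 beside Pate14 fell by 0.57 and 0.49 under the double label (limma adjusted p = 0.0064 and 0.042). The other 16 neighbours were called under neither label, though not all were unchanged. BC028471, on the same strand beside Alox5ap, changed by 1.02 and 0.67. It averaged 3.10 against 1.12 TPM under the double label and 1.85 against 0.66 TPM under the triple label. Gm5814 beside Guca1a changed by 0.19 and -0.85. Txndc16 overlaps Gpr137c on the opposite strand, which lay between 0.24 and 2.82 TPM. Gpr137c changed by 0.54 and 0.52 and was called under neither label. On chromosome 14, which carries Txndc16, the median difference of the genes tested was -0.56 and -0.53 in triple-label replicates 2 and 3 and -0.54 in double-label replicate 2, so Txndc16 was higher in those libraries while the median gene of its chromosome was lower.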

How the data were processed

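RNA of 22 mpkCCD libraries was copied and amplified with a SMARTer V4 kit and tagmented with Nextera XT, which keeps no strand, and read in pairs, per the labels' protocols. STAR and RSEM are named in the submitters' processing notes, and their versions and the genome build are not given in the sources used here. The deposited values are TPM, read as the authors left them. TPM holds no depth, so no counting error could be given, and a shift of a few abundant transcripts moves all other values. The 18 rescue samples of the 40 in the labels were not analysed here.

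Values were taken as log2(TPM + 1), keeping the 13295 of 55414 genes that averaged 1 TPM or more. A single fit of 6 cell means (group within run) was made with limma 3.58.1 in R 4.3.3, with trended empirical Bayes and Benjamini-Hochberg adjustment over all genes tested, called at 0.05, and was tested on simulated data. SE values come from this fit. The 10 genes, the context lists and the markers were chosen with earlier results of these data known. Named besides the 10 genes were list members, the 3 most correlated genes, nearest tested neighbours and the targeted genes, and Spaca7, Sgk1, S100g, Tspan13, Ramp3, Klra8 and Klra14-ps were singled out after their values were seen. Marker lists of intercalated cells, fibroblasts and proximal tubule are given in the closing section. The results of 1 context list are not reported here. Alternatives covered the pseudocount, the filter, 2 other scalings, the choice of controls, the replicate block and each library left out.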

Additional observations from a re-analysis of the deposited data

Results flagged for a closer look

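Among the 20 groups of 5 libraries that the 10 genes form in the first run, 2 held a library whose gap to its nearest neighbour on the log2 scale was large against the range of its group (Dixon's limit of 0.71). Chance alone flags about 5% of such groups. Osbpl6 was low in ATF1-KO replicate 5, at 0.08 TPM, where the gap was 0.809 of the range. Gm32461 was high in ATF1-KO replicate 4, at 2.92 TPM, where the gap was 0.733 of the range.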

How the results depend on the processing

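Groups of 3 to 5 libraries, TPM without depth, and runs known only from library numbers limit these values. No p-value is given for the 10 genes under the double and triple labels, on which they were chosen, though the counts of all genes called include them, and the second run's control clones differed in composition from the rest. Of the changes of the 10 genes in ATF1-KO, 169 of 177 alternatives kept the direction and stayed uncalled, and 8 turned direction. For the other labels a change was counted as kept if its direction held and it moved by no more than the SD of that label's libraries. This held for 108 of 128 alternatives under the double label and 113 of 128 under the triple label. Genes with a wider spread meet this limit more easily.

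The direction turned as follows. Against all 11 control clones, the ATF1-KO change was -0.22 for Klra4 and -0.32 for Guca1a, and the triple-label change of Calml4 was -0.17. The median over all genes tested in that ATF1-KO comparison was 0.36. With 1 library left out, the ATF1-KO change ran from -0.11 to 0.47 for Klra4, from -0.050 to 0.43 for Txndc16, from -0.58 to 0.13 for Osbpl6, from -0.53 to 0.017 for Alox5ap and from -0.13 to 0.18 for Guca1a, and the triple-label change of Calml4 ran from -0.078 to 0.51. The cause was not tested.

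The number of genes apart from their controls was 10 under the double label, 9 with median-ratio scaling and 7 against all 11 clones, and 9, 9 and 6 under the triple label. For genes called by limma, the double-label count of 609 was 1109 with median-ratio scaling, 9 with the second run alone, 4260 against all 11 clones and 234 to 1365 with 1 library left out. Of the 4260 genes 3918 were lower, in a fit with no run term where the median change over all genes was -0.96. That count so holds the difference between runs as well. The triple-label count of 1066 was 137 against all 11 clones and 664 to 1107 with 1 library left out. The ATF1-KO count of 0 was also 0 with the first run alone, 1 with no filter on low values and 0 to 3 with 1 library left out. Median-ratio scaling called 463 of 1109 genes higher under the double label, against 195 of 609, and 484 of 1000 under the triple label, against 385 of 1066. Replicate numbers are shared in the first run alone. Same-numbered libraries had correlations of -0.10 to 0.09 and 2 of 5 were closest to their own number, so the numbers were not taken as pairs, and with the replicate block 0 genes were called in ATF1-KO.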

Other observations

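Beyond the 10 genes, 50 others had a change of at least 1 on the log2 scale and every library above every own-run control under both labels. These were picked out after their values were seen, and carry no test. Ordered by the smaller of both changes, 4 of them stood above Osbpl6, the first of the 10 genes. S100g, the calcium-binding protein calbindin-D9k, was at 75.3, 145 and 18.5 TPM under the double label against 3.44 to 4.79 TPM, and at 14.9, 26.6 and 23.6 TPM under the triple label against 1.35 to 1.94 TPM. Sgk1, a kinase that raises sodium channel activity in the collecting duct, was at 119, 148 and 211 TPM against 11.9 to 29.0 TPM, and at 760, 1585 and 1524 TPM against 71.5 to 156 TPM. Sgk1 varied widely among the control clones of the first run, where clones 1 and 3 were at 828.95 and 833.59 TPM, above all 3 double-label libraries and triple-label replicate 1, and the other 3 were at 36.3 to 127 TPM. Ramp3, a partner of the calcitonin-type receptors, was at 2.64, 18.1 and 38.6 TPM and at 10.2, 32.7 and 30.9 TPM, against at most 1.5 TPM in both sets of controls.

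Guca2a and Guca2b, which encode guanylin and uroguanylin, peptides that activate guanylate cyclase C, were listed at 0 in 15 and 13 of the 22 libraries and were too low to be tested. Guca2a was at 2.05, 0.58 and 1.32 TPM under the double label and at 7.22, 0.64 and 0.84 TPM under the triple label, and at 0 in all 11 control clones. Guca2b was at 2.17, 0.28 and 0.91 TPM and at 3.5, 1.86 and 1.36 TPM, against at most 0.17 TPM in control clones. Aqp6, a marker of intercalated cells, fell by 2.21 under the triple label (limma adjusted p = 0.0019), while the other intercalated marker tested was not called. Fibroblast markers summed to at most 1.95 TPM in any library, and the proximal tubule marker that was tested was called under neither label.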
